A study of Homo sapiens with 12 samples.

Results

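The connexin genes GJA1, GJA3, GJB2, GJB5 and GJC1 were examined in taxane-resistant and parental Du145 cells, an established line of castration-resistant prostate cancer. The 5 genes were taken as a list of gap junction genes and matched by Ensembl identifier, and all 5 of 5 were present among the 60616 genes of both count tables. GJA1 was picked by its rise in Du145-DtxR, so its level in those libraries is given as a description with no test, and the list as a whole was drawn up with earlier results of these data known. The members' values were set beside the whole connexin family of 21 annotated genes, which includes the 5.

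RNA-seq was performed in 2 experiments of 6 libraries each. In the resistance experiment, Du145-DtxR cells (made resistant to docetaxel), Du145-CbzR cells (made resistant to cabazitaxel) and Du145-P cells (parental, passaged in parallel and not treated) had 2 libraries each. Both resistant lines had been selected in 72 h exposures whose dose was doubled stepwise, the first at 1 nM and the last at 125 nM. In the siRNA experiment, Du145-DtxR cells received siBRPF1, directed at the chromatin reader gene BRPF1, or siControl for 24 h, and RNA was collected 48 h after the siRNA was removed, with 3 libraries each. Every group of the siRNA experiment therefore carries the docetaxel-resistant background. Each kind of resistance is represented by 1 derived line. The study's methods call the replicates biological, without saying how they were grown, and a p-value here covers the spread between the libraries of a group.

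The resistance libraries held 27512386 to 30593578 estimated counts each and the siRNA libraries 16667821 to 17306262. Levels are given as CPM, counts per 1000000 of the library size after TMM scaling. ABCB1, a drug efflux pump gene given as a design check, averaged 454 CPM in Du145-DtxR, 2764 CPM in Du145-CbzR and 0.346 CPM in Du145-P. BRPF1 averaged 8.60 ± 0.386 CPM with siBRPF1 and 30.3 ± 0.812 CPM with siControl (SD, n = 3 each). Epithelial markers (KRT8, KRT18, EPCAM, CDH1) summed to 355.3 to 451.7 CPM per library in the resistance experiment and 663.5 to 1106 CPM in the siRNA experiment. All 4 had counts in every group, but CDH1 was low outside Du145-P. It averaged 36.9 CPM in Du145-P, 1.40 CPM in Du145-DtxR, 0.714 CPM in Du145-CbzR, 0.507 CPM with siBRPF1 and 3.58 CPM with siControl. Fibroblast markers summed to 3.31 to 3.73 CPM in Du145-DtxR, 26.7 to 27.1 CPM in Du145-CbzR, 22.5 to 24.0 CPM in Du145-P, 7.95 to 9.12 CPM with siBRPF1 and 10.6 to 12.2 CPM with siControl, with DCN or LUM, or both, or COL1A2 at 0 in each group. Leukocyte markers summed to 71.4 to 74.5 CPM in Du145-DtxR, 44.2 to 46.1 CPM in Du145-CbzR and 16.2 to 18.7 CPM in Du145-P, and 110.0 to 143.9 CPM with siBRPF1 and 113.7 to 148.7 CPM with siControl. In each group 1 of the 6 leukocyte genes, CD68, reached 1 CPM in every library, and CD3E or PTPRC, or both, were at 0. Endothelial markers stayed under 1 CPM in sum. The part of these marker levels in the results below was not tested. In bulk RNA, fewer cells that express a gene and less RNA per cell cannot be told apart.

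Connexins are the subunits of gap junctions. They assemble as hexamers into hemichannels that dock between neighbouring cells and let ions and small metabolites pass, and undocked hemichannels can also open to the outside. GJA1 encodes Cx43, the most widespread connexin, found in basal epithelial and stromal cells of the prostate. GJC1 encodes Cx45, known from the cardiac conduction system and vascular muscle, and GJA3 encodes Cx46, known from lens fibre cells. GJB2 encodes Cx26, of the cochlea and epidermis, and GJB5 encodes Cx31.1, of the epidermis.

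Promoter sequences are shown for 3 of the members. Each run reads 5' to 3' on the gene's own strand from up to 250 bases before the RefSeq gene start (GRCh38.p14), and capitals mark matches, on either strand, to the AP-1 motif TGANTCA, the GC box GGGCGG or the M-CAT motif GGAATG of TEAD factors. GJB5 and GJC1 had no entry among the promoter sequences used.
GJA1, chr6:121435396-121435624 (+): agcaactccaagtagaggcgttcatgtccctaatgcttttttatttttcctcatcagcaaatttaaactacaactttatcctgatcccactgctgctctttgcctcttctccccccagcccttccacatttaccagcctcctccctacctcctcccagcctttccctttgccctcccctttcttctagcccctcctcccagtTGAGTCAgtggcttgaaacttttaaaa
GJA3, chr13:20161053-20161302 (-): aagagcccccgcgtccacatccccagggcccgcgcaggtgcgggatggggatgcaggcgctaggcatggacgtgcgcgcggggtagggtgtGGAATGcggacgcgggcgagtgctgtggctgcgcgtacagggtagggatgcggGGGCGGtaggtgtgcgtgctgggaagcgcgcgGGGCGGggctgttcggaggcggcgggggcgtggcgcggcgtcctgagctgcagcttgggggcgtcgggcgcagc
GJB2, chr13:20192939-20193188 (-): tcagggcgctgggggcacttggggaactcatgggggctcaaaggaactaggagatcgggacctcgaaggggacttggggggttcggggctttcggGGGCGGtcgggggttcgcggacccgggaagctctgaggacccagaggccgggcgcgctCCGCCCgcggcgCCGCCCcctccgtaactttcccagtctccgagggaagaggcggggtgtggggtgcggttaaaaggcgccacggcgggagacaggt
The GJA1 run was cut to 229 bases, because GENCODE places the start of the gene 51 bases before the RefSeq start, and its last 30 bases lie within that first exon. Its single capital stretch, TGAGTCA, begins 48 bases before the RefSeq start and so lies within the first exon as GENCODE places it. Of 35114 promoters of the same length, 6.57% held TGANTCA, 42.6% GGGCGG, 11.9% GGAATG and 10.7% the TATA motif TATAAA, and none of the 3 windows held TATAAA. The GJA3 window held GGGCGG at 106 and 74 bases before the start and GGAATG at 159. The GJB2 window held 3 GC boxes, at 155, 97 and 85 bases before the start. Over the full 250 bases, the GJA1 window was 48.0% G or C with 1 CpG, the GJA3 window 74.8% with 33 CpG and the GJB2 window 70.0% with 25 CpG, beside medians of 58.0% and 11 CpG over all promoters. A motif match is a description of letters, and binding was not measured.

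The first question was which connexin transcripts the 3 lines carry and how the lines differ. GJA1 (ENSG00000152661, chromosome 6, 121435595 to 121449727, plus strand) was counted at 35.5 and 36.9 CPM in Du145-DtxR, at 0.422 and 0.422 CPM in Du145-CbzR and at 0.714 and 0.464 CPM in Du145-P. These CPM stand on 967 and 999 estimated counts in Du145-DtxR, 13 and 13 in Du145-CbzR, and 22 and 14 in Du145-P. GJA1 was therefore high in the docetaxel-resistant line and near the bottom of the detectable range in the cabazitaxel-resistant and parental lines. As a description, its level in Du145-DtxR was 60.9-fold that of Du145-P (log2 fold change 5.93, SE 0.14) and that of Du145-CbzR 84.9-fold below Du145-DtxR (log2 fold change -6.41). Du145-CbzR was compared with Du145-P, libraries that also entered the choice of GJA1. The log2 fold change was -0.48 (SE 0.30, 95% confidence interval -1.15 to 0.19). It did not pass (adjusted p = 0.269, edgeR quasi-likelihood test), although both Du145-CbzR values lay below both Du145-P values. The choice of GJA1 favoured low Du145-P values, so this test cannot decide whether GJA1 fell in Du145-CbzR. The processed pseudogene GJA1P1 had at most about 1 count in any library.

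GJA3 (ENSG00000121743, chromosome 13, 20138255 to 20161052, minus strand) showed the opposite split of the resistant lines. It was counted at 10.9 and 10.8 CPM in Du145-DtxR, 22.5 and 21.04 CPM in Du145-CbzR and 9.93 and 10.7 CPM in Du145-P. GJA3 rose in Du145-CbzR against Du145-P, with a log2 fold change of 1.08 (SE 0.08, adjusted p = 6.22e-07, edgeR). It was also higher in Du145-CbzR than in Du145-DtxR, with a log2 fold change of 1.00 (SE 0.08, adjusted p = 5.73e-07, edgeR). Du145-DtxR and Du145-P did not differ beyond their spread, with a log2 fold change of 0.07 and a 95% confidence interval of -0.12 to 0.27 (adjusted p = 0.502, edgeR).

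GJC1 (ENSG00000182963, chromosome 17, 44798448 to 44830816, minus strand) was the most abundant connexin per length in the libraries of the resistance experiment and rose in both resistant lines. In the siRNA experiment with siControl, GJA1 at 10.61, 10.44 and 12.37 CPM per kb was level with or above GJC1 at 10.24, 10.43 and 12.23. GJC1 was counted in the resistance experiment at 158.8 and 150.3 CPM in Du145-DtxR, 153.7 and 155.9 CPM in Du145-CbzR, and 114.5 and 112.8 CPM in Du145-P. The log2 fold change against Du145-P was 0.44 for Du145-DtxR (SE 0.05, adjusted p = 6.41e-06) and 0.45 for Du145-CbzR (SE 0.05, adjusted p = 1.14e-05, edgeR), and both comparisons used the same Du145-P libraries. The resistant lines did not differ beyond their spread, the log2 fold change of Du145-CbzR against Du145-DtxR being 0.00 with a 95% confidence interval of -0.10 to 0.11.

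GJB2 (ENSG00000165474, chromosome 13, 20187463 to 20192938, minus strand) was low throughout and lowest in Du145-DtxR. It was counted at 0.294 and 0.480 CPM in Du145-DtxR, 1.17 and 1.01 CPM in Du145-CbzR, and 1.69 and 1.59 CPM in Du145-P. The counts behind these values were 8 and 13 in Du145-DtxR, 36 and 31 in Du145-CbzR, and 52 and 48 in Du145-P, so each level rests on few reads. GJB2 fell in Du145-DtxR against Du145-P by 2.07 on the log2 scale (SE 0.33, adjusted p = 1.72e-04, edgeR). It was higher in Du145-CbzR than in Du145-DtxR (log2 fold change 1.48, SE 0.35, adjusted p = 0.00278, edgeR). The log2 fold change of Du145-CbzR against Du145-P was -0.59 (SE 0.28) and did not pass (adjusted p = 0.0982, edgeR), and the groups did not overlap.

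GJB5 (ENSG00000189280, chromosome 1, 34755047 to 34758512, plus strand) was at the edge of detection. It had 0 and 3 estimated counts in Du145-DtxR, 4 and 7 in Du145-CbzR, and 6 and 4 in Du145-P, and the count of 0 allows up to 3 counts, or 0.110 CPM, in that library. It did not pass the filter on low counts in either experiment and was left untested. The filter needed about 0.331 CPM in the resistance and 0.591 CPM in the siRNA libraries. The log2 ratio of the summed counts was -1.57 for Du145-DtxR against Du145-P (95% interval -4.07 to 0.39, counting error only) and 0.12 for Du145-CbzR against Du145-P (-1.25 to 1.52), and Du145-CbzR against Du145-DtxR gave 1.69 (-0.23 to 4.17). Whether the libraries kept strand is not given in the sources used here, so reads from the opposite strand at this locus cannot be told apart.

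**Figure D1:**
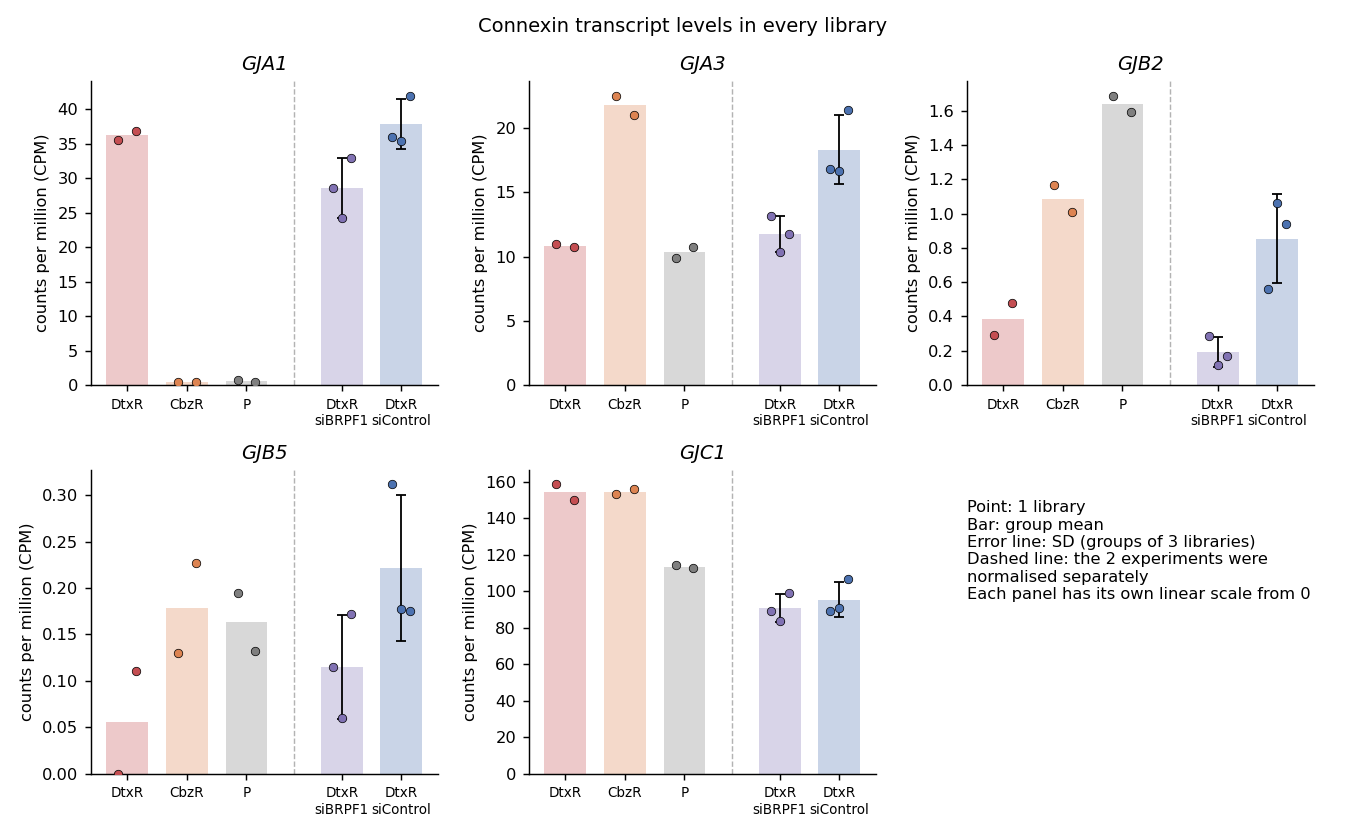
CPM (linear axes from 0, a scale per panel) of the 5 connexins in every library, with bars for group means and SD lines for the siRNA groups of 3 libraries. GJA1 stood at 35.5 and 36.9 CPM in DtxR, under 1 CPM in CbzR and P, and at 24.3 to 33.0 CPM with siBRPF1 and 35.4 to 42.0 CPM with siControl.

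Of the 4 members that passed the filter in the resistance experiment (GJB5 did not), GJA1 is left out of the counts that follow where Du145-DtxR libraries were compared. In Du145-DtxR against Du145-P, 1 of the other 3 was higher (GJC1) and 1 lower (GJB2), where 31.1% of 18218 genes tested were called higher and 32.0% lower at adjusted p under 0.05. In Du145-CbzR against Du145-P, 2 of 4 were higher (GJA3, GJC1) and 0 lower by edgeR, where 24.4% and 26.3% of all genes were. For the lower direction, DESeq2 also called 0 of the 4, and 0 had an unadjusted p under 0.05. The 4 include GJA1, whose choice drew on the same Du145-P libraries. In Du145-CbzR against Du145-DtxR, 2 of 3 were higher (GJA3, GJB2) and 0 lower by edgeR, where 31.2% and 31.8% of all genes were, and again 0 were lower by DESeq2 or at an unadjusted p under 0.05. With so large a share of all genes called, these counts are no result about the connexins as a group. With a log2 fold change beyond 1 required as well, GJB2 remained in Du145-DtxR (lower, where 13.8% of all genes were, and 6.62% higher), GJA3 in Du145-CbzR against Du145-P (higher, 3.74%, with 7.88% lower), and GJA3 and GJB2 in Du145-CbzR against Du145-DtxR (higher, 12.2%, with 8.71% lower).

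The second question was how the connexins of the docetaxel-resistant line behaved when BRPF1 was knocked down. GJA1 was counted at 28.6, 24.3 and 33.0 CPM with siBRPF1, against 36.0, 35.4 and 42.0 CPM with siControl. All 3 siBRPF1 values lay below all 3 siControl values. GJA1 remained far above the Du145-P level under both siRNAs, although the 2 experiments were normalised separately. Other members shifted between the experiments within the docetaxel-resistant line. GJC1 averaged 95.6 CPM with siControl, below its means of 154.5 CPM in Du145-DtxR and 113.6 CPM in Du145-P. GJA3 averaged 18.3 CPM with siControl and 10.9 CPM in Du145-DtxR, and GJB2 0.853 and 0.387 CPM. The cause of these shifts was not tested. The log2 fold change was -0.40 (SE 0.12, adjusted p = 0.0286, edgeR). The call was lost without siBRPF1 replicate 1 (log2 fold change -0.40, adjusted p = 0.0962), siBRPF1 replicate 2 (-0.29, adjusted p = 0.0901), siControl replicate 2 (-0.44, adjusted p = 0.0581) or siControl replicate 3 (-0.32, adjusted p = 0.0571, edgeR).

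GJA3 also fell with siBRPF1. It was counted at 13.2, 10.3 and 11.8 CPM with siBRPF1, against 16.8, 16.69 and 21.4 CPM with siControl, and the groups did not overlap. The log2 fold change was -0.64 (SE 0.13, adjusted p = 0.00524, edgeR), and it passed with any 1 library left out (adjusted p of 0.00878 to 0.0212). Whether GJA1 and GJA3 differed in their response was not tested.

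GJC1 had 89.4, 84.0 and 99.4 CPM with siBRPF1, against 89.2, 90.9 and 106.6 CPM with siControl. Replicate 3 was the highest of the siControl libraries for GJA1, GJA3 and GJC1 alike. The groups overlapped for GJC1, and the log2 fold change was -0.07 with a 95% confidence interval of -0.29 to 0.14 (adjusted p = 0.621, edgeR).

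GJB2 had 5, 2 and 3 counts with siBRPF1, against 9, 18 and 16 counts with siControl, or 0.287, 0.119 and 0.172 CPM against 0.561, 1.06 and 0.937 CPM. Every siBRPF1 value was the lower, but GJB2 reached the filter in 2 libraries, both of siControl, and was left untested. The log2 ratio of the summed counts, 10 against 43, was -2.15 (95% interval -3.31 to -1.13, counting error only). As a description, a fit with no filter on low counts gave -2.09 (SE 0.51). GJB5 had 2, 1 and 3 counts with siBRPF1, against 5, 3 and 3 counts with siControl, a log2 ratio of -0.92 (95% interval -2.64 to 0.64, counting error only).

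Of the 3 members tested in the siRNA experiment, 2 were lower (GJA1, GJA3) and 0 higher by edgeR at adjusted p under 0.05, where 15.1% of 15704 genes were lower and 11.6% higher. DESeq2 called the same 2 lower, and for the higher direction it called 0, with 0 at an unadjusted p under 0.05. None passed with a log2 fold change beyond 1, where 3.34% of all genes were lower and 0.49% higher.

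Levels between genes were compared per length, as CPM per kb of annotated exon. In Du145-DtxR, GJC1 averaged 17.7 and GJA1 10.7 CPM per kb, with GJA3 at 2.08, GJB2 at 0.156 and GJB5 at 0.041. In Du145-CbzR, GJC1 averaged 17.8 CPM per kb and GJA3 4.18, with GJB2 at 0.440, GJB5 at 0.132 and GJA1 at 0.124. In Du145-P, GJC1 averaged 13.04 and GJA3 1.98 CPM per kb, with GJB2 at 0.663, GJA1 at 0.174 and GJB5 at 0.121. GJA1 was thus second in order in Du145-DtxR and among the lowest of the 5 in the other lines, where its level per length is close to that of GJB5. Summed over the 21 connexins, the level was 35.3 and 34.8 CPM per kb in Du145-DtxR, 27.4 and 27.9 in Du145-CbzR, and 19.8 and 19.3 in Du145-P. GJA1 was chosen for being high in Du145-DtxR, so the sum was also taken without it, after the values had been seen. It was then 24.8 and 23.9 CPM per kb in Du145-DtxR, 27.3 and 27.8 in Du145-CbzR, and 19.6 and 19.1 in Du145-P, and the order of the resistant lines was turned round.

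GJA1 made up 29.7% and 31.2% of that sum in Du145-DtxR, 0.454% and 0.446% in Du145-CbzR, and 1.06% and 0.710% in Du145-P. GJC1 made up 51.6% and 49.6% in Du145-DtxR, 64.4% and 64.2% in Du145-CbzR, and 66.3% and 67.2% in Du145-P. In the independent siRNA libraries of the same line, GJA1 made up 30.2%, 28.1% and 32.8% of the sum with siBRPF1, against 35.9%, 35.5% and 36.5% with siControl. The siBRPF1 shares were all below the siControl shares.

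**Figure D2:**
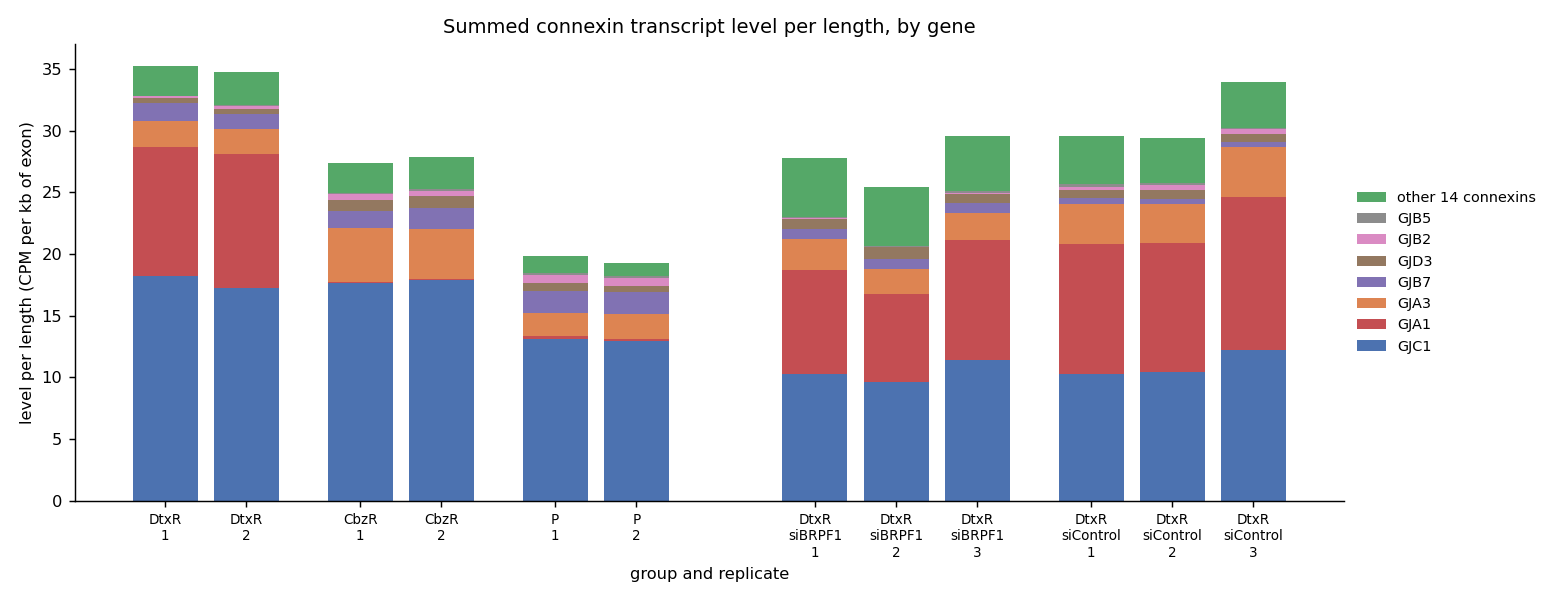
Stacked bars of the level per length (CPM per kb of exon, linear axis from 0) of 7 connexins, and of the other 14 together, in each of the 12 libraries. GJC1 was the largest block in every line of the resistance experiment, the GJA1 block was 29.7% and 31.2% of the sum in DtxR and 0.446% to 1.06% in CbzR and P, and it was as tall as the GJC1 block with siControl.

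Across the whole connexin family, 8 of the 21 genes passed the filter in the resistance experiment and 7 in the siRNA experiment. The 13 others of the resistance experiment were at 0 in every library (6 genes) or, apart from GJB5, at no more than 4 counts. In all 12 libraries together 5 connexins were at 0.

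GJD3, which encodes Cx31.9, followed GJA3 in being highest in Du145-CbzR. It was counted at 1.84 and 1.88 CPM in Du145-DtxR, 3.50 and 3.80 CPM in Du145-CbzR, and 2.53 and 2.09 CPM in Du145-P. The log2 fold change of Du145-CbzR was 0.97 against Du145-DtxR (SE 0.19, adjusted p = 9.04e-04) and 0.66 against Du145-P (SE 0.19, adjusted p = 0.0112, edgeR). The value against Du145-P did not pass by DESeq2 (adjusted p = 0.0752) or without Du145-CbzR replicate 2 (0.60, adjusted p = 0.0710) or Du145-P replicate 2 (0.53, adjusted p = 0.0745). GJB7, which encodes Cx25, had 3.97 and 3.21 CPM in Du145-DtxR, against 4.87 and 4.91 CPM in Du145-P. That log2 fold change of -0.44 (SE 0.17, adjusted p = 0.0368, edgeR) did not pass by DESeq2 (adjusted p = 0.145) or without Du145-DtxR replicate 2 (-0.30), Du145-P replicate 1 (-0.45) or Du145-P replicate 2 (-0.44). With siBRPF1 GJB7 had 2.18, 2.21 and 2.12 CPM, against 1.31, 1.18 and 0.996 CPM with siControl, a log2 fold change of 0.90 (SE 0.22, adjusted p = 0.0127, edgeR), at adjusted p = 0.0513 by DESeq2.

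Over the tested connexins other than GJA1, the median log2 fold change was 0.07 in Du145-DtxR against Du145-P (-0.02 over all genes), 0.66 in Du145-CbzR against Du145-P (-0.01 over all genes), 0.25 in Du145-CbzR against Du145-DtxR (0.01 over all genes) and 0.14 with siBRPF1 (-0.01 over all genes). With GJA1 counted, the medians were 0.55 in Du145-CbzR against Du145-P and, with the sign turned, -0.07 with siBRPF1. GJA1 is left out of the family counts where Du145-DtxR libraries of the resistance experiment were compared. In Du145-DtxR against Du145-P, 2 of the other 7 were higher and 2 lower, where 31.1% and 32.0% of all genes were. In Du145-CbzR against Du145-P, 4 of 8 were higher and 0 lower by edgeR, where 24.4% and 26.3% of all genes were. For the lower direction, DESeq2 also called 0, and 0 had an unadjusted p under 0.05. In Du145-CbzR against Du145-DtxR, 3 of 7 were higher and 0 lower by edgeR, where 31.2% and 31.8% of all genes were. With siBRPF1, 2 of 7 were higher and 2 lower, where 11.6% and 15.1% of all genes were. No result about the family is read from these counts.

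**Figure D3:**
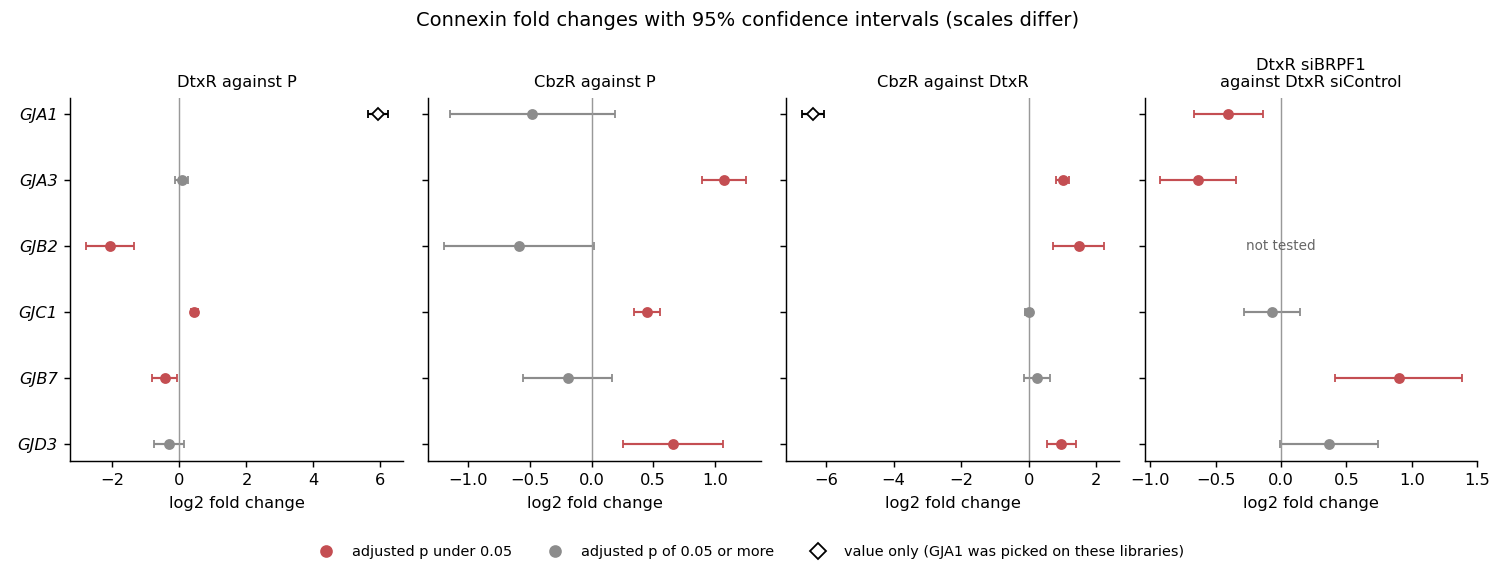
Log2 fold change (x axis, a scale per panel) with 95% confidence interval of 6 connexins in the 4 comparisons, with red for adjusted p under 0.05, grey for the rest and open diamonds for the GJA1 values that were not tested. GJC1 lay above 0 in both lines against P, GJA3 lay at 1.08 in CbzR and 0.07 in DtxR, and GJA1 and GJA3 lay at -0.40 and -0.64 with siBRPF1.

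The genes that carry, modify and degrade connexins were read from lists of connexin partners. Among scaffold and junction partners, 5 of 13 tested were higher and 6 lower in Du145-DtxR against Du145-P, and 3 higher and 8 lower in Du145-CbzR against Du145-P. Of all genes, 31.1% were higher and 32.0% lower in the first comparison and 24.4% and 26.3% in the second. CDH1, the cell adhesion protein E-cadherin on which junction assembly depends, fell in both resistant lines, with log2 fold changes against Du145-P of -4.72 in Du145-DtxR and -5.68 in Du145-CbzR. CDH1 averaged 1.40 ± 0.359 CPM in Du145-DtxR, 0.714 ± 0.046 CPM in Du145-CbzR and 36.9 ± 2.90 CPM in Du145-P (SD, n = 2 each). With siBRPF1, CDH1 averaged 0.507 ± 0.249 CPM and with siControl 3.58 ± 1.39 CPM (SD, n = 3 each), a log2 fold change of -2.82 (adjusted p = 5.57e-04, edgeR). In that comparison 4 of the 13 partners were higher and 3 lower, where 11.6% and 15.1% of all genes were. Nothing particular to the partners, or to the lists that follow, is read from such counts. The median log2 fold change of the partners was -0.05 in Du145-DtxR and -0.36 in Du145-CbzR against Du145-P and 0.09 with siBRPF1, beside the medians over all genes given for the connexins. CAV2, a caveolin, had a log2 fold change of -1.02 in Du145-CbzR against Du145-P (adjusted p = 1.79e-08, edgeR).

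Among 12 kinases that phosphorylate Cx43, 4 were higher and 3 lower in Du145-DtxR against Du145-P, 4 higher and 4 lower in Du145-CbzR against Du145-P, and 1 higher and 0 lower with siBRPF1 by edgeR, with 1 lower at an unadjusted p under 0.05 and 0 lower by DESeq2. The shares of all genes called higher and lower were 31.1% and 32.0% in Du145-DtxR, 24.4% and 26.3% in Du145-CbzR, and 11.6% and 15.1% with siBRPF1. The medians of the kinases were 0.02, 0.08 and 0.02 on the log2 scale. AKT1 had a log2 fold change of -0.66 in Du145-DtxR (adjusted p = 2.96e-07) and 0.07 in Du145-CbzR (adjusted p = 0.230), and MAPK3 (ERK1) of -0.51 and 0.15 in the same comparisons (adjusted p = 1.36e-05 and 0.0570, edgeR). SRC, the tyrosine kinase that closes Cx43 channels, had a log2 fold change of -0.05 in Du145-DtxR (adjusted p = 0.521) and fell by 0.81 on the log2 scale in Du145-CbzR (adjusted p = 2.54e-06, edgeR).

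Among 14 genes of assembly, trafficking and turnover, 7 were higher and 1 lower in Du145-DtxR against Du145-P, 8 higher and 4 lower in Du145-CbzR against Du145-P, and 2 higher and 0 lower with siBRPF1 by edgeR, with 0 lower at an unadjusted p under 0.05 or by DESeq2. The background shares, higher then lower, were 31.1% and 32.0% for Du145-DtxR, 24.4% and 26.3% for Du145-CbzR, and 11.6% and 15.1% with siBRPF1. The list's medians were 0.20, 0.21 and 0.05 on the log2 scale. SMURF2, a ubiquitin ligase that targets Cx43, was higher in Du145-DtxR (log2 fold change 1.41, adjusted p = 3.80e-10) and in Du145-CbzR (0.38, adjusted p = 3.99e-05, edgeR). NEDD4, another such ligase, had a log2 fold change of 0.70 in Du145-DtxR (adjusted p = 1.58e-07) and 0.02 in Du145-CbzR (adjusted p = 0.716). CNST (consortin), a receptor that moves connexins out of the trans-Golgi network, was higher in Du145-DtxR (0.63, adjusted p = 7.59e-07) and lower in Du145-CbzR (-0.22, adjusted p = 0.00522, edgeR) than in Du145-P. The Du145-CbzR value did not pass without Du145-CbzR replicate 2 (-0.19, adjusted p = 0.0697).

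Among 13 transcriptional regulators of GJA1, 3 were higher and 6 lower in each resistant line against Du145-P, and 2 higher and 5 lower with siBRPF1, with medians of -0.32, -0.18 and -0.25. Higher and lower calls took 31.1% and 32.0% of all genes in Du145-DtxR, 24.4% and 26.3% in Du145-CbzR, and 11.6% and 15.1% with siBRPF1. The AP-1 subunits FOSL1, JUN and FOS had the smallest adjusted p of that list. Its other AP-1 subunits were called in both directions in Du145-DtxR against Du145-P. The AP-1 motif is the one marked in the GJA1 sequence, and a link between these levels and GJA1 was not tested. FOSL1 averaged 225.6 ± 5.43 CPM in Du145-DtxR, 50.2 ± 6.02 CPM in Du145-CbzR and 24.9 ± 2.97 CPM in Du145-P (SD, n = 2 each), with log2 fold changes against Du145-P of 3.18 and 1.01. JUN had log2 fold changes of 2.38 in Du145-DtxR and 1.19 in Du145-CbzR, and FOS of -2.51 and -0.83, all with adjusted p of 1.49e-05 or less (edgeR). With siBRPF1, FOSL1 averaged 473.3 ± 76.8 CPM and with siControl 728.3 ± 81.4 CPM (SD, n = 3 each), a log2 fold change of -0.62 (SE 0.12, adjusted p = 0.00356, edgeR). FOS had -0.87 (adjusted p = 4.07e-04) and JUN 0.28 (adjusted p = 0.0183, edgeR), the last lost without siBRPF1 replicate 1 (0.26, adjusted p = 0.0912), siBRPF1 replicate 3 (0.27, adjusted p = 0.0596) or siControl replicate 2 (0.28, adjusted p = 0.0728).

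The pannexins form channels of a similar fold without docking between cells, and 2 of 3 were tested. PANX1 was higher in both resistant lines (log2 fold change 0.86 in Du145-DtxR, adjusted p = 4.11e-07, and 0.48 in Du145-CbzR, adjusted p = 1.11e-04, edgeR). PANX2 fell by 1.04 on the log2 scale in Du145-DtxR (adjusted p = 3.43e-07) and by 0.77 with siBRPF1 against siControl (adjusted p = 6.87e-04, edgeR). Its log2 fold change in Du145-CbzR of -0.25 (adjusted p = 0.0159, edgeR) did not pass by DESeq2 (adjusted p = 0.0984) or without Du145-CbzR replicate 1 (-0.20) or Du145-P replicate 2 (-0.16).

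The surroundings of the members were read within 1 Mb on either side. Around GJA1, 5 of 23 annotated genes were tested. TBC1D32, 100.8 kb before the GJA1 start, and HSF2 had log2 fold changes of -0.11 and 0.00 in Du145-DtxR against Du145-P, with adjusted p of 0.372 and 0.976 (edgeR). SERINC1 was at -0.24 (adjusted p = 0.00314) and the lncRNA ENSG00000286540, 973.1 kb before the start, at 1.58 (adjusted p = 0.00103, edgeR), beside the GJA1 value of 5.93. That lncRNA averaged 1.06 CPM and was at -1.38 in Du145-CbzR (adjusted p = 0.0173, edgeR). Around GJA3, 2 of 16 tested genes rose and 7 fell in Du145-DtxR. The 7 include the member GJB2, which starts 31.9 kb before GJA3 and was the lowest of them at -2.07. In Du145-CbzR 3 rose and 6 fell, and the highest was SKA3 at 0.46, beside the GJA3 value of 1.08. Around GJC1, 8 of 57 tested genes rose and 34 fell in Du145-DtxR, with a median of -0.35, and 6 rose and 15 fell in Du145-CbzR, with a median of -0.09. Beside these, the shares of the whole table called higher and lower were 31.1% and 32.0% for Du145-DtxR (median -0.02), and 24.4% and 26.3% for Du145-CbzR (median -0.01).

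**Figure D4:**
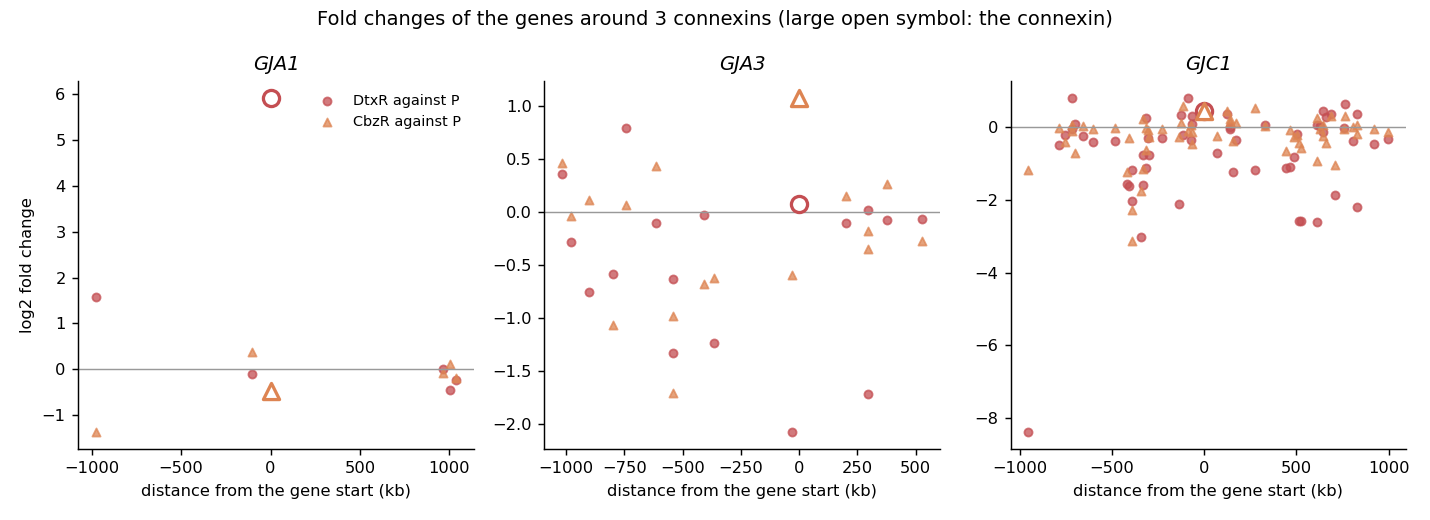
Log2 fold change (y axis, a scale per panel) of the tested genes within 1 Mb of GJA1, GJA3 and GJC1 against their distance from the start of the connexin gene (x axis, kb along its strand), with circles for DtxR against P, triangles for CbzR against P and large open symbols for the connexin. The GJA1 circle at 5.93 stood above the 5 genes around it, which lay between -0.46 and 1.58.

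The genes most like each member were taken as those with the smallest root mean square difference in log2 CPM over the 12 libraries, each gene centred on its mean within each experiment, among 12546 genes. For GJA1, chosen for its pattern, these were ADGRV1 (0.352), C4orf19 (0.385) and SKAP1 (0.416), which lie on chromosomes 5, 4 and 17. For GJA3 they were PAQR5 (0.107), SEC14L1 (0.116) and MOXD1 (0.128), and for GJC1 they were PAWR (0.0490), OTUD3 (0.0541) and SC5D (0.0569). For GJB2, over the 6 libraries of the resistance experiment and 12376 genes, they were ENSG00000261604 (0.118), WAS (0.144) and ZNF428 (0.152). The nearest genes of GJA1 lay further from it than those of GJA3 or GJC1 lay from theirs, and the measure grows with the size of the differences between libraries. ADGRV1 had log2 fold changes of 5.89 in Du145-DtxR and -1.26 in Du145-CbzR against Du145-P, and of -0.24 with siBRPF1.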

How the data were processed

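The deposited tables hold estimated counts per gene that the authors made by checking paired-end reads with FastQC, aligning with STAR to GENCODE transcripts of GRCh38, quantifying with Salmon and summing per gene with tximport. Versions and the GENCODE release are not given in the sources used here. The tables are named as TPM, but their columns sum to different totals, so their values were taken for estimated counts and rounded to whole numbers. Estimated counts split reads between similar transcripts, and counting intervals cover counting error only.

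Genes were filtered with filterByExpr, scaled by TMM and tested with the quasi-likelihood test of edgeR 4.0.16 in R 4.3.3, all 6 libraries of an experiment in 1 fit, with Benjamini-Hochberg adjustment over all genes tested. The authors used DESeq2, which was run here as an alternative (1.42.0), and the script was tested on simulated data. Positions and exon lengths came from GENCODE 44 on GRCh38, whose identifier versions matched those of the 5 members in the files, and promoters from RefSeq (GRCh38.p14). Levels per length divide CPM by the merged exon length, not by the effective length of the quantification.

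The members and all gene lists were chosen with earlier results of these data known. Named genes were the 5 members, every other connexin that passed the filter in 1 experiment or more, up to 3 genes of each partner list with the smallest adjusted p over the 4 comparisons, the 3 genes most like each member (at least 5 CPM in the highest group), and BRPF1 and ABCB1 as design checks. Some of the genes that this rule names are not reported here. Genes named from the surroundings of the members were chosen after their values were seen. Alternatives were no filter, a mean of at least 1 CPM, DESeq2 size factors, DESeq2, a replicate block, the 2 groups compared alone, each library left out, and a log2 fold limit of 1.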

Additional observations from a re-analysis of the deposited data

Results flagged for a closer look

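The effects of the 2 kinds of resistance against Du145-P were compared through Du145-CbzR against Du145-DtxR, in which the Du145-P libraries cancel. The difference of effects was 1.00 on the log2 scale for GJA3 (adjusted p = 5.73e-07), 1.48 for GJB2 (adjusted p = 0.00278) and 0.97 for GJD3 (adjusted p = 9.04e-04), each from the edgeR quasi-likelihood test with both Du145-CbzR libraries above both Du145-DtxR libraries. For GJA1 the difference was -6.41 on the log2 scale, given as a description. Both Du145-DtxR libraries lay above both Du145-P libraries. Both Du145-CbzR libraries lay below those of Du145-P, on few counts, and that comparison did not pass. The GJA1 difference was not tested, because the gene was picked by its rise in Du145-DtxR.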

How the results depend on the processing

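Of the members' log2 fold changes, GJA1 with siBRPF1 was the value whose call depended on the libraries, with a range of -0.52 to -0.29 when each library was left out and a lost call in 4 of 6 cases. Under the fold limit (log2 fold change beyond 1), GJC1 was no longer called in Du145-DtxR (0.44) or Du145-CbzR (0.45) against Du145-P, nor GJA3 (-0.64) and GJA1 with siBRPF1. The other member calls kept their direction and their side of the threshold under the fold limit and the remaining alternatives run. Further ranges with a library left out were 5.66 to 6.27 for GJA1 and -2.46 to -1.76 for GJB2 in Du145-DtxR against Du145-P. GJA3 ranged over 1.02 to 1.13 in Du145-CbzR against Du145-P and over -0.73 to -0.51 with siBRPF1. In Du145-CbzR against Du145-DtxR the ranges were 0.970 to 1.05 for GJA3, on both sides of the fold limit of 1, and 1.17 to 1.87 for GJB2. The count of members lower with siBRPF1 ranged between 1 and 3 with a library left out, since GJB2 entered some of those tests. The count of connexins lower with siBRPF1 likewise lay between 1 and 3. GJB2 passed the filter there only through its siControl libraries, the group where it is high, so its call is not read as a result.

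With the fold limit, the members called higher were 0 in Du145-DtxR against Du145-P (GJA1 left out) and 1 in Du145-CbzR against Du145-P, and those lower with siBRPF1 were 0. With the fold limit, the connexins called in Du145-DtxR against Du145-P (GJA1 left out) were 1 higher and 1 lower. In Du145-CbzR against Du145-P 2 were higher, and with siBRPF1 0 were higher and 0 lower. Connexins lower in Du145-DtxR numbered 1 with no filter on low counts and 1 by DESeq2, and 1 to 2 with a library left out. Connexins higher with siBRPF1 numbered 1 with no filter, 1 with a mean of at least 1 CPM and 0 by DESeq2, and 1 to 2 with a library left out. GJB7 was among the genes lost, at adjusted p = 0.0642 and 0.145 in Du145-DtxR with no filter and by DESeq2, and the cause was not tested.

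Same-numbered libraries had correlations of -0.0212 to 0.0848 in the resistance experiment and of 0.0588, 0.170 and 0.342 in the siRNA experiment. Libraries of different number in the siRNA experiment ranged from -0.325 to 0.202, the highest between siBRPF1 replicate 2 and siControl replicate 1. Whether the siRNA libraries were grown in pairs cannot be decided from these values. The study's methods name no pairs, so the replicate numbers were not taken as pairs in the main fit. A replicate block changed no member call, and gave -0.41 for GJA1 and -0.64 for GJA3 with siBRPF1 (adjusted p = 5.10e-04 and 3.40e-04, edgeR). It gave counts of 2 members lower and 2 connexins higher. The fits with a library left out, in which the GJA1 call was lost, held no replicate block. The pseudocount alternative was not run, because the tables hold estimated counts. Depth limits GJB5 and GJB2: at 0 to 7 counts per library GJB5 cannot show a difference of modest size.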
